A study of Mus musculus with 6 samples.

Results

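The EGF receptor family in skin was followed through 9 genes, of 54146 gene IDs in all. They were taken by symbol: 3 receptors (Egfr, Erbb2 and Erbb3) and 6 ligands (Areg, Hbegf, Ereg, Tgfa, Btc and Epgn). Every one of the 9 symbols matched 1 Ensembl ID, and all 9 genes passed the filter on low values, a library mean of 0.1 FPKM or more. RNA sequencing covered the skin of 3 control mice (CON) and 3 mice under chronic restraint stress (CRS) after 12 weeks, 1 total RNA library per mouse. Restraint confines a mouse again and again and is used to model psychological stress. No other treatment or allele is named in the labels, which state neither sex, age and strain nor the body site of the skin. The comparison asks which transcripts of the family differ between stressed and control skin.

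ErbB receptors are membrane tyrosine kinases that work as pairs. A ligand is made as a membrane-bound precursor, is cut free by ADAM proteases, binds a receptor and drives it to pair, after which the RAS, RAF and ERK kinases and PI3 kinase carry the signal inward. EGFR binds all of the 6 ligands measured here, ERBB2 binds none of them and serves as the preferred partner, and ERBB3 binds neuregulins and has a weak kinase. In epidermis the pathway is known for driving keratinocyte growth and for delaying differentiation, and mice with mutations in Egfr or Tgfa have wavy hair and curled whiskers.

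The genes of the ligands Epgn, Ereg, Areg and Btc lie next to each other, in that order, on chromosome 5, with Mthfd2l before and Parm1 after them among the protein-coding genes of RefSeq on GRCm38.p6. Tgfa is on chromosome 6, Erbb3 on chromosome 10, and Egfr and Erbb2 are both on chromosome 11. Start-site sequences (250 bases before to 50 bases after the start) from RefSeq on GRCm38.p6 were taken for 6 of the 9 genes. None was taken for Ereg, Erbb3 or Hbegf, and 4 of the 6 are shown. Egfr and Erbb2 had the most alike patterns of any pair of members across the libraries, while Areg and Epgn share the chromosome 5 cluster but had unlike patterns. Capitals mark 4 motifs searched on both strands: TATAAA, the cyclic AMP response element TGACGTCA, the AP-1 site TGANTCA and the GC box GGGCGG.
Egfr (chr11:16751953-16752252, plus strand): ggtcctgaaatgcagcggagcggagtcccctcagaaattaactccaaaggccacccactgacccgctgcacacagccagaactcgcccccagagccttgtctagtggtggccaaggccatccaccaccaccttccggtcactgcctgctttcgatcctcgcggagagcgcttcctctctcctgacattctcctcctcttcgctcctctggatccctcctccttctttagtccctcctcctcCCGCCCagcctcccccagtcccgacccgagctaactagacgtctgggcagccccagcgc
Erbb2 (chr11:98412234-98412533, plus strand): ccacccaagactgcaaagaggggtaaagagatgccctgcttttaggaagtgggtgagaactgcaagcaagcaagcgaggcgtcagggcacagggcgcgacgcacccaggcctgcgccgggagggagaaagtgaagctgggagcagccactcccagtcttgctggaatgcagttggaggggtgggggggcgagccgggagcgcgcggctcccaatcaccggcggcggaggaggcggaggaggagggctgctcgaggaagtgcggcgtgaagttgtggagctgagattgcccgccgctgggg
Areg (chr5:91139349-91139648, plus strand): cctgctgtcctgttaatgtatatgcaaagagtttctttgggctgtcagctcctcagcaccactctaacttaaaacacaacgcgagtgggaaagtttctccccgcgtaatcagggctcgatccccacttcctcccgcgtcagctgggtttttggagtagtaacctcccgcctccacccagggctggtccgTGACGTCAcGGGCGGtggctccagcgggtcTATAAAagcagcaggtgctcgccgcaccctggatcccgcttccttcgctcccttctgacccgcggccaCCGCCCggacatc
Epgn (chr5:91027267-91027566, plus strand): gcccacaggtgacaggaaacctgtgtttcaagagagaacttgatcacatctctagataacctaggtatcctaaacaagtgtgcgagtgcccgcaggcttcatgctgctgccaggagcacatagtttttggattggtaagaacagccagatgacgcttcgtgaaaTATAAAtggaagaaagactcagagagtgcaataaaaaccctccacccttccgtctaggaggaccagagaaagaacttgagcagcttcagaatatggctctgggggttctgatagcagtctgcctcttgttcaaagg
TATAAA began 31 bases before the Areg start and 86 bases before the Epgn start, and 13.6% of the 32851 start-site sequences in the table held it. Areg alone of these 4 held TGACGTCA, 61 bases before its start, a motif in 1.79% of all such sequences. It also held a GC box 52 bases before the start and another after the start, and Egfr held a GC box 9 bases before the start, against 35.7% of all sequences. TGANTCA, in 7.81% of all sequences, was in none of the 4 windows, nor were any of the 4 motifs in that of Erbb2. None of the marked motifs overlapped another, and the G and C content was 62.3% for Egfr, 66.0% for Erbb2, 59.3% for Areg and 47.3% for Epgn.

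For no receptor or ligand was a difference between stressed and control skin larger than the spread between libraries. Of the 9 genes, 0 were higher and 0 lower at a limma adjusted p under 0.05, beside 0% of the 28389 genes tested in either direction. At an unadjusted p under 0.05 the count was 0 of 9, against 2.55% of all genes, and limma voom on recovered fragments also gave 0 by either criterion. In 0 of the 9 genes were the CRS and CON libraries apart without overlap, which was the case for 6.84% of all genes. CRS replicates 1 and 3 lay below every control in 3 of the 9, Egfr, Erbb2 and Hbegf, beside 27.4% of all genes. The CRS libraries themselves lay up to 4.73-fold apart for a receptor (Erbb2), and CRS replicate 2 held the highest value of all 6 libraries in 5 of the 9 genes, where the share among all genes was 29.2%.

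FPKM, fragments per kilobase of exon scaled to library depth, is meant to let levels of different genes be set side by side. How FPKM depended on gene length differed between these libraries, which limits such comparisons (described below). Libraries held about 13300000 to 25700000 fragments by the steps between FPKM values, which put 1605 to 6927 fragments on Egfr and 201 to 324 on Areg per library. A pair of libraries stood apart. CON replicate 1 had a summed level of 11155 FPKM over 7 skeletal muscle markers, against 318.3 to 2276 FPKM elsewhere, and 15.3% of its fragments were mitochondrial, against 2.50% to 4.19%. CRS replicate 2 had long genes high and short genes low, described below. CRS replicates 1 and 3 leaned the other way, with long genes low and short genes high. Keratinocyte identity was present throughout, the 7 basal markers (Krt5, Krt14 and others) summing to 1565 to 2560 FPKM with 0 of them at 0 in any library. In bulk skin, fewer cells of a type and less RNA per cell cannot be told apart.

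**Figure D1:**
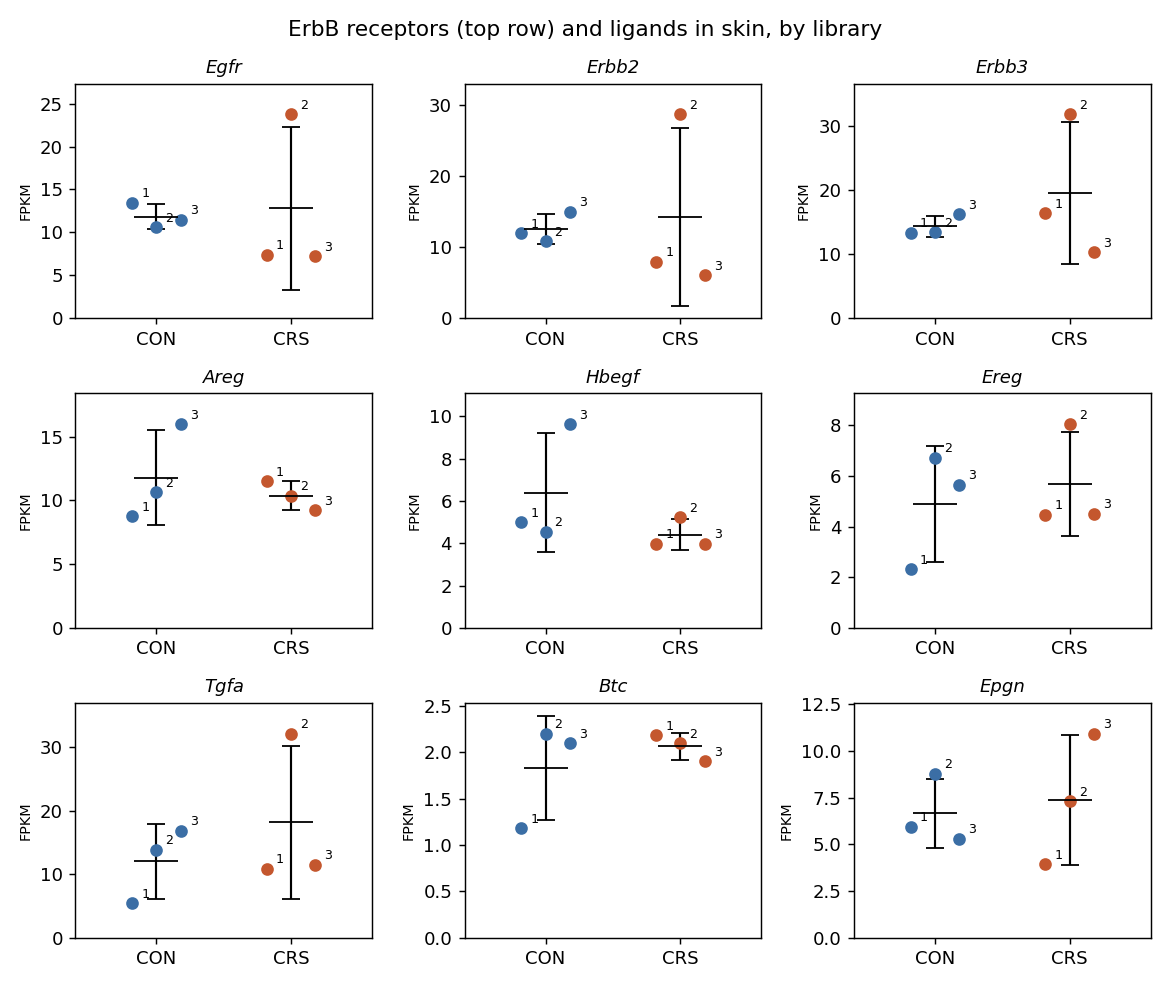
FPKM of the 3 receptors (top row) and 6 ligands in each library, with CON in blue and CRS in orange; small numbers give the replicate, and bars the mean and SD of 3 libraries. CRS replicate 2 lies above every CON library for Egfr, Erbb2, Erbb3, Ereg and Tgfa, while CRS replicates 1 and 3 lie below every CON library for Egfr, Erbb2 and Hbegf.

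Among the receptors, Egfr, the receptor of all these ligands, stood at 13.4, 10.6 and 11.5 FPKM in CON replicates 1 to 3 and at 7.37, 23.8 and 7.18 FPKM in CRS. The stressed libraries thus lay on both sides of the controls, with CRS replicates 1 and 3 below all of them and CRS replicate 2 above. Means were 11.8 ± 1.44 FPKM for the controls and 12.8 ± 9.52 FPKM under stress (SD, n = 3), and the log2 fold change on log2(FPKM + 0.1) was -0.12 (SE 0.48, 95% interval -1.21 to 0.96, limma adjusted p = 0.9999). Erbb2, the partner receptor without a ligand of its own, was at 12.0, 10.9 and 15.0 FPKM in the controls against 7.94, 28.8 and 6.08 FPKM in the stressed libraries. Its stressed libraries split in the same way, and its log2 fold change was -0.16 (SE 0.55, 95% interval -1.41 to 1.1, limma adjusted p = 0.9999). Exons of Erbb2 overlap those of Mien1 on the opposite strand in GENCODE M21, and strand was not given in the sources used here, so fragments may be shared.

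Erbb3, the neuregulin receptor of the family, was at 13.3, 13.4 and 16.2 FPKM in the controls against 16.3, 31.8 and 10.3 FPKM in the stressed libraries. CRS replicate 1 was level with the highest control here, unlike its position for Egfr and Erbb2. Means were 14.3 ± 1.67 and 19.5 ± 11.1 FPKM (SD, n = 3), with a log2 fold change of 0.30 (SE 0.42, 95% interval -0.66 to 1.26, limma adjusted p = 0.9999). Erbb3 is also expressed by melanocytes, and the summed level of 6 melanocyte markers was 261.5 to 301.4 FPKM in CON and 176.0 to 206.2 FPKM in CRS, 0 of them at 0 in any library. The part of those cells in the Erbb3 value was not tested.

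Without CRS replicate 2, the receptor values were -0.69 for Egfr, -0.84 for Erbb2 and -0.13 for Erbb3 on the log2 scale. Egfr and Erbb2 then had unadjusted p of 0.00775 and 0.0108 but adjusted p of 0.192 and 0.197 with limma, and 14.6% of all genes were lower at an unadjusted p under 0.05 in that setting. Of the 9 members 5 were below 0 there, beside 61.2% of all genes. Array weights, which count discordant libraries less, gave -0.64 for Egfr and -0.93 for Erbb2 with limma adjusted p of 0.125 and 0.0953, beside 23% of all genes lower at an unadjusted p under 0.05. Without CRS replicate 3 Egfr, Erbb2 and Erbb3 stood at 0.17, 0.28 and 0.68, and without CRS replicate 1 at 0.15, 0.085 and 0.35. With all 6 libraries kept, median-ratio scaling also turned Egfr to 0.11 and Erbb2 to 0.079. The pattern of CRS replicates 1 and 3 below and CRS replicate 2 above every CON library, picked out after the values were seen, held for 2 of the 9 members and for 15.2% of all genes tested.

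**Figure D2:**
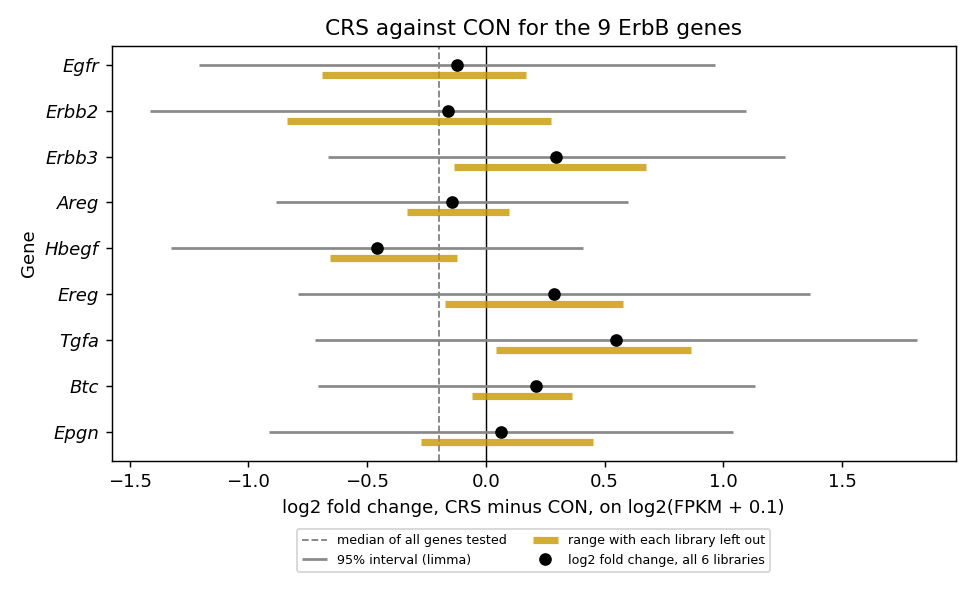
Log2 fold change of CRS minus CON for each gene (black points), with its 95% interval from limma (grey lines), the range when each library is left out in turn (yellow bars) and the median of all genes (dashed line, -0.20). All 9 intervals include 0, and the left-out range crosses 0 for 7 of the 9 genes, the exceptions being Hbegf and Tgfa.

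Ratios within a library, which do not depend on library scaling, put the receptors beside each other. Erbb3 to Egfr was 0.99, 1.26 and 1.42 in CON and 2.22, 1.34 and 1.43 in CRS. Erbb3 to Erbb2 was 1.11, 1.23 and 1.08 in CON and 2.06, 1.11 and 1.70 in CRS, and Egfr to Erbb2 stayed between 0.77 and 1.18 in the 6 libraries. Both Erbb3 ratios were above every control in CRS replicates 1 and 3, though for Erbb3 to Egfr only just in CRS replicate 3, and CRS replicate 2 lay among the controls, so the groups overlapped in each ratio. Two-sided exact permutation tests of the 3 ratios gave p = 0.2, 0.3 and 0.9, or 0.45, 0.45 and 0.9 after Benjamini-Hochberg adjustment, where 0.1 is the smallest p that 3 against 3 libraries allow.

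Tgfa, which encodes TGF-alpha, a growth factor that keratinocytes make, varied most of the 9 genes, with a 5.91-fold range over the libraries. It was at 5.43, 13.8 and 16.9 FPKM in the controls against 10.8, 32.1 and 11.5 FPKM in the stressed libraries. CON replicate 1 was the lowest library and CRS replicate 2 the highest, while the other 4 lay between 10.8 and 16.9 FPKM. The means were 12.0 ± 5.92 and 18.1 ± 12.1 FPKM (SD, n = 3), with a log2 fold change of 0.55 (SE 0.55, 95% interval -0.72 to 1.82, limma adjusted p = 0.9999). Leaving out CON replicate 1 brought it to 0.057 and leaving out CRS replicate 2 to 0.044, and with both left out it turned to -0.45 (unadjusted p = 0.0456, limma adjusted p = 0.360), where 10.9% of all genes were lower at an unadjusted p under 0.05.

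Ereg, which encodes epiregulin, a ligand of EGFR and ERBB4, followed a like course at a lower level. It was at 2.31, 6.72 and 5.65 FPKM in the controls against 4.47, 8.05 and 4.51 FPKM in the stressed libraries, again lowest in CON replicate 1 and highest in CRS replicate 2. Its log2 fold change was 0.29 (SE 0.47, 95% interval -0.79 to 1.37, limma adjusted p = 0.9999), and without CON replicate 1 it was -0.17. Btc, which encodes betacellulin, another ligand of EGFR and ERBB4, was the least abundant of the 9 genes in every library. Its values were 1.18, 2.20 and 2.10 FPKM in the controls against 2.19, 2.10 and 1.90 FPKM in the stressed libraries, on 101 to 244 fragments per library. Apart from CON replicate 1 the 5 libraries lay within a narrow band, giving a log2 fold change of 0.21 (SE 0.40, limma adjusted p = 0.9999) with all libraries and -0.057 without that one.

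Areg, which encodes amphiregulin, a ligand that keratinocytes make in culture and that acts back on them, was at 8.75, 10.6 and 16.0 FPKM in the controls against 11.5, 10.4 and 9.24 FPKM in the stressed libraries. It was the least variable member, with a 1.83-fold range over the libraries, and only CON replicate 3 stood away from the rest. Its log2 fold change was -0.14 (SE 0.32, 95% interval -0.88 to 0.60, limma adjusted p = 0.9999). Hbegf, which encodes heparin-binding EGF-like growth factor, a ligand induced in wounded epidermis and encoded on chromosome 18, was at 4.99, 4.55 and 9.64 FPKM in the controls against 3.99, 5.24 and 3.98 FPKM in the stressed libraries. CON replicate 3 was the high library here as well. Hbegf had the most negative value of the family at -0.46 (SE 0.38, 95% interval -1.32 to 0.41, limma adjusted p = 0.9999), and it was -0.12 without CON replicate 3.

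Epgn, which encodes epigen, a low-affinity EGFR ligand, was at 5.94, 8.77 and 5.29 FPKM in the controls against 3.94, 7.31 and 10.9 FPKM in the stressed libraries. The stressed libraries spanned the controls at both ends, with CRS replicate 3 the highest library and CRS replicate 1 the lowest. The log2 fold change was 0.064 (SE 0.43, 95% interval -0.91 to 1.04, limma adjusted p = 0.9999), between -0.27 without CRS replicate 3 and 0.45 without CRS replicate 1. Epgn was the only member to peak in CRS replicate 3.

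CON replicate 1 was the lowest library for Tgfa, Ereg, Btc and Areg, 4 of the 9 members, a position it held in 9.19% of all genes. None of the 3 receptors was lowest in it, and Egfr had its highest CON value there. Beside these ligands, the summed level of 7 suprabasal keratinocyte markers was 637.1 FPKM in CON replicate 1 and 1221 to 2583 FPKM in the other libraries. That of 7 activated keratinocyte markers was 897.5 against 1299 to 1702 FPKM, while the basal markers, at 2243 FPKM, were second only to CRS replicate 2. CON replicate 1 was also the lowest library for the summed markers of dermal fibroblasts (236.7 against 810.6 to 1285 FPKM), hair shaft (1368 against 2804 to 8120 FPKM) and macrophages (143.3 against 244.6 to 427.6 FPKM). It was not the lowest for those of sebaceous gland, adipocytes, T cells or melanocytes. For endothelium it was the highest (28.2 against 4.62 to 22.5 FPKM), as it was for skeletal muscle. None of the markers in these lists was at 0 in any library, and their part in the ligand values was not tested.

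**Figure D3:**
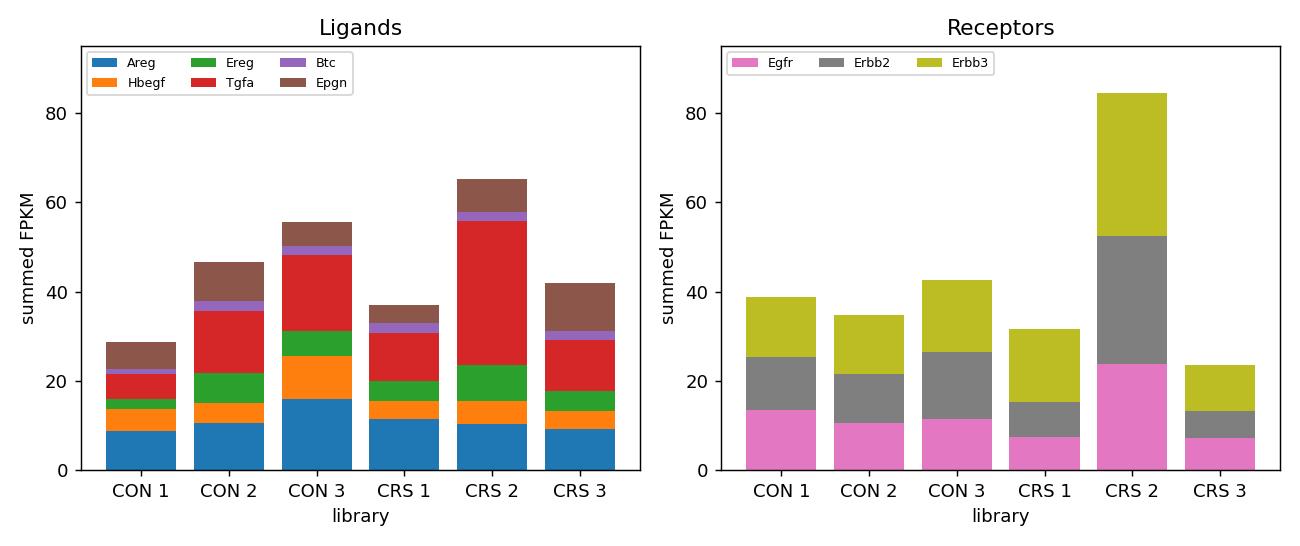
Summed FPKM of the 6 ligands (left) and the 3 receptors (right) in each library, each colour being 1 gene. Ligands sum to between 28.6 FPKM in CON replicate 1 and 65.1 FPKM in CRS replicate 2, and receptors to between 23.6 FPKM in CRS replicate 3 and 84.4 FPKM in CRS replicate 2.

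By level in control skin, the order of mean FPKM was Erbb3 (14.3), Erbb2 (12.6), Tgfa (12.0), Egfr (11.8), Areg (11.8), Epgn (6.67), Hbegf (6.39), Ereg (4.89) and Btc (1.83). Neighbours in this order overlapped between their CON libraries, except Ereg and Btc, whose closest values were 2.31 and 2.20 FPKM. The order in CRS began with Erbb3 (19.5), Tgfa (18.1), Erbb2 (14.3) and Egfr (12.8) and ended with Btc (2.06) as well. Tgfa made up 19.0% of the summed ligand FPKM in CON replicate 1, 27.3% to 30.4% in 4 libraries and 49.2% in CRS replicate 2. Areg took between 15.9% and 31.2%, and Epgn ranged from 9.53% in CON replicate 3 to 26% in CRS replicate 3. The most abundant ligand was Areg in CON replicate 1 and CRS replicate 1 and Tgfa in the other 4 libraries. These shares and ranks were not corrected for gene length. In CRS replicate 2, genes of Tgfa's length were 0.62 above their mean over the 6 libraries on the log2 scale, and those of Areg's length 0.51 below.

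The libraries differed in how level depended on gene length, and the receptors are long. Merged exons of Egfr total 11326 nt, those of Tgfa, Erbb3 and Erbb2 6490, 6016 and 5210 nt, and those of Areg 1215 nt. In CRS replicate 2, genes of Egfr's length were 0.75 above their mean over the 6 libraries on the log2 scale, and those of Areg's length 0.51 below (lowess trend -0.51). At Egfr's length the trend was -0.42 in CRS replicate 1 and -0.66 in CRS replicate 3, and between -0.11 and 0.26 in the controls. With the trend subtracted, what was left of Egfr lay between -0.19 and 0.32 in the 6 libraries. Erbb2 kept 0.75 in CRS replicate 2 and -0.49 in CRS replicate 3, and Tgfa kept 0.67 in CRS replicate 2 and -1.48 in CON replicate 1.

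**Figure D4:**
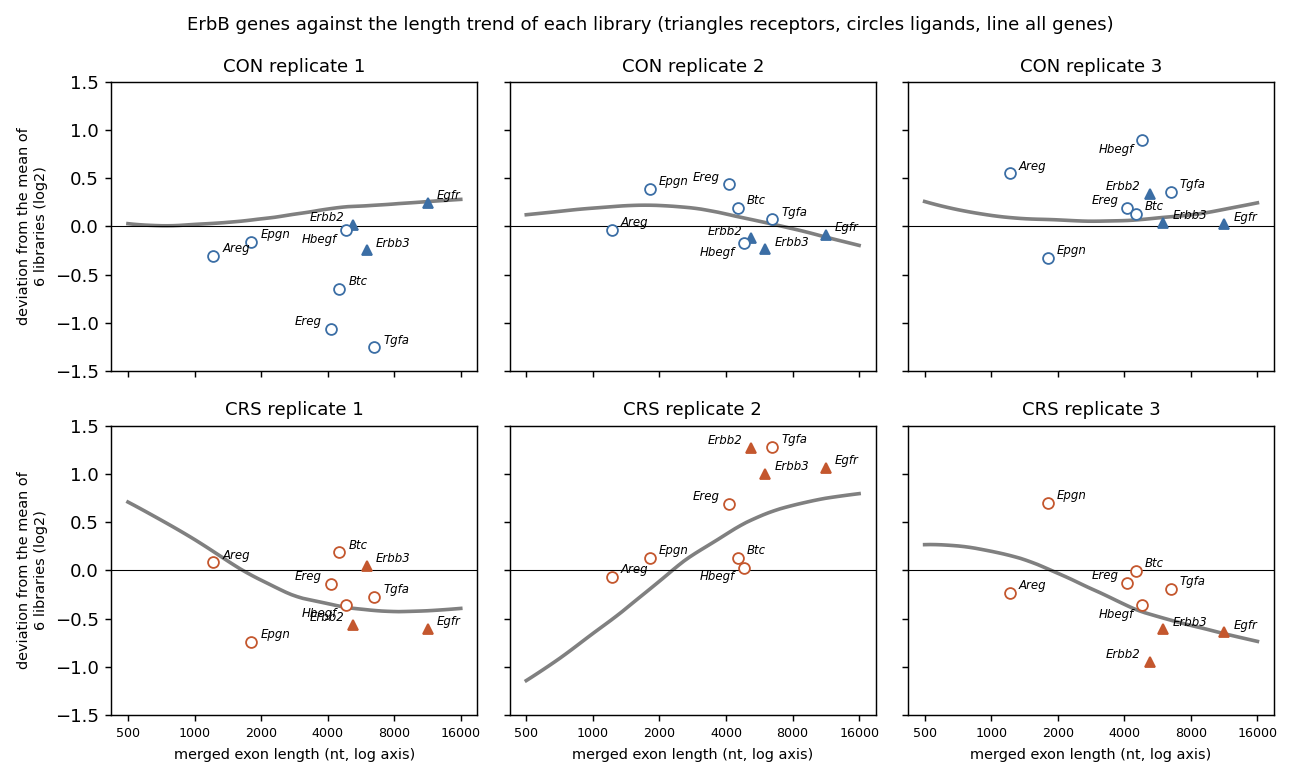
Deviation of each gene from its own mean over the 6 libraries (log2 scale) against merged exon length (log axis), by library, with receptors as triangles and ligands as circles; the grey line is the lowess trend of all genes of at least 1 FPKM. Egfr lies close to the line in every library, while Tgfa and Ereg fall more than 1 unit below it in CON replicate 1.

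With that length correction, added after the data were seen, all 3 receptors were above 0, at 0.094 for Egfr, 0.070 for Erbb2 and 0.52 for Erbb3, with a limma adjusted p of 0.9999 each. Of the 9 members 8 were above 0 in that setting, beside 52% of all genes. Uncorrected, 4 members were below 0 and 5 above, where 67.8% of all genes were below 0 and 32.2% above, and the member median was 0.064 against -0.20 for all genes. With both libraries that stood apart left out, all 9 members were below 0, beside 61.1% of all genes, and 0 passed the adjusted threshold. The CRS libraries kept there, replicates 1 and 3, both had long genes low. The direction of the family thus depended on the libraries and the scaling used.

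By root mean square difference of centred log2 values over the 6 libraries, members lay closest to each other for Egfr and Erbb2 (0.22), Areg and Hbegf (0.27), Areg and Btc (0.27), and Ereg and Tgfa (0.31). Along the chromosome 5 cluster the differences between neighbours were 0.64 for Epgn and Ereg, 0.51 for Ereg and Areg, and 0.27 for Areg and Btc, and that of Areg and Epgn was 0.65. Among 11780 other protein-coding genes of at least 1 FPKM, Dnajc13 (0.035) and Plcg1 (0.048) were the nearest to Egfr. Kansl1 (0.068) and Cog7 (0.11) were nearest to Erbb2, and Fcho1 (0.064) and Atg9b (0.074) to Erbb3. For the ligands they were Cited4 (0.051) and Dact3 (0.060) for Areg, Slu7 and Abhd17b (both 0.11) for Hbegf, and Htra3 (0.077) and Gpr35 (0.14) for Ereg. Megf6 (0.10) and Pcsk6 (0.19) were nearest to Tgfa, Abhd12 (0.091) and Arrdc4 (0.092) to Btc, and Cidec (0.11) and Stbd1 (0.18) to Epgn. Plcg1, which encodes a phospholipase that binds activated EGFR, stood at 9.58, 7.62 and 8.27 FPKM in the controls against 5.70, 18.1 and 5.12 FPKM in the stressed libraries. Its merged exons total 7857 nt. All these differences were taken on values without the length correction, and the part of length in the likeness was not tested.

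Of the ErbB genes outside the member list, Erbb4 and Nrg3 were under the filter, at means of 0.071 FPKM over the libraries, which leaves Egfr, Erbb2 and Erbb3 as the receptors of the family above it. Nrg1, Nrg2, Nrg4 and Egf were tested, and 0 of these 4 passed the adjusted threshold. Nrg4, which encodes a neuregulin that binds ERBB4, was at 0.77, 0.65 and 0.40 FPKM in the controls against 0.86, 1.17 and 0.88 FPKM in the stressed libraries. Its groups did not overlap, as in 1.65% of all genes with CRS higher, with a log2 fold change of 0.63 (SE 0.49, limma adjusted p = 0.9999; exact permutation p = 0.1). Egf, the founding ligand, was at 0.61, 0.18 and 0.33 FPKM in the controls against 0.27, 0.36 and 0.084 FPKM in the stressed libraries, far under the 6 member ligands. For Nrg2 the log2 fold change was -0.27 (SE 0.44).

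The proteases Adam17 and Adam10, which release the ligands, were low in CRS replicates 1 and 3 and high in CRS replicate 2. Adam17, the main sheddase of TGF-alpha, amphiregulin and HB-EGF, was at 7.17, 6.61 and 6.03 FPKM in the controls against 3.63, 10.3 and 3.38 FPKM in the stressed libraries. Adam10, which sheds betacellulin, was at 22.0, 21 and 21.5 FPKM in the controls against 11.9, 33.1 and 11.6 FPKM in the stressed libraries. Each had CRS replicates 1 and 3 below the controls and CRS replicate 2 above. That split was found in 4 of the 6 shedding genes (not in Frmd8 or the inhibitor gene Timp3) and in 15.2% of all genes. Merged exons of Adam17 and Adam10 total 7154 and 4913 nt. Near these lengths the length trend was -0.42 and -0.39 in CRS replicate 1 and 0.64 and 0.50 in CRS replicate 2. In CRS replicate 3 it was -0.54 and -0.44, and the part of length in the split was not tested. The log2 fold changes were -0.38 (SE 0.45) for Adam17, -0.37 (SE 0.43) for Adam10 and -0.20 (SE 0.42) for Rhbdf2, a partner that brings ADAM17 to the cell surface. None of the 6 passed, 3 being above and 3 below 0, where 67.8% of all genes were below 0. Under median-ratio scaling 4 were above and 2 below 0, beside 49.6% of all genes below 0.

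Of the 24 receptor adaptors and effectors, 0 passed the adjusted threshold, with 6 above and 18 below 0 and a median of -0.27, where 67.8% of all genes were below 0 and their median was -0.20. Under median-ratio scaling 12 of the 24 were above and 12 below 0, beside 49.6% of all genes below 0. The lowest unadjusted p belonged to the PI3 kinase subunit genes Pik3ca, at -0.71 (SE 0.39), and Pik3cb, at 0.49 (SE 0.40), and to the kinase gene Akt2, at -0.37 (SE 0.32). Of the genes for receptor restraint and turnover, 11 were tested under 12 names, Hgs being at or near 0 under both of its IDs. The median of these 11 was -0.19, 3 being above and 8 below 0 (6 and 5 under median-ratio scaling), and 0 passed. Socs4 and Socs5, whose products lower EGFR levels, were at -0.62 (SE 0.41) and -0.45 (SE 0.39), and Errfi1, an inhibitor of the EGFR kinase, at 0.36 (SE 0.35). The split of the stressed libraries around the controls was counted after the values were seen. It held for 12 of the 24 effectors and 9 of the 11 restraint genes, beside 15.2% of all genes, a share not matched for gene length. Merged exons ran from 2257 nt (Mapk3) to 13862 nt (Braf) in the effectors. In the restraint genes tested they ran from 3582 nt (Errfi1) to 13328 nt (Ptprk). At 5241 nt the length trend was -0.39, 0.53 and -0.46 in CRS replicates 1 to 3, against 0.071 to 0.21 in the controls. The part of length in the split was not tested.

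The ERK feedback and response genes had the lowest median of the 5 pathway lists, -0.54 against -0.20 for all genes. Of these 16 genes 3 were above and 13 below 0, beside 67.8% of all genes below 0. At an unadjusted p under 0.05, 2 of the 16 were lower and 0 higher, beside 1.63% and 0.919% of all genes, and 0 passed the adjusted threshold. That count turned with the scaling: it was 0 lower and 2 higher under median-ratio scaling (184 and 421 of 28389 genes). With the length correction it was 1 lower and 2 higher (332 and 756 of 28373 genes). It was 0 lower with voom, with the replicate block or without a variance trend, where 338, 370 and 360 of all genes were lower. Without CRS replicate 2 it was 10 lower, beside 14.6% of all genes there. Dusp6, the phosphatase that switches off ERK, was at 25.9, 26.3 and 29.7 FPKM in the controls against 9.91, 24.6 and 13.8 FPKM in the stressed libraries. All 3 stressed libraries lay below the controls, CRS replicate 2 only just. Its log2 fold change was -0.86 (SE 0.37, unadjusted p = 0.0481, limma adjusted p = 0.9999; exact permutation p = 0.1), and it was -0.56 without CRS replicate 1 and -1.21 without CRS replicate 2.

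Etv4, an ETS transcription factor gene induced by ERK, was at 15.2, 14.1 and 19.9 FPKM in the controls against 11.6, 7.83 and 10.5 FPKM in the stressed libraries. Here CRS replicate 2 was the lowest library, and the groups again did not overlap. The log2 fold change was -0.72 (SE 0.31, unadjusted p = 0.0450, limma adjusted p = 0.9999; exact permutation p = 0.1), and it lay between -0.84 and -0.56 with each library left out. Dusp5, which encodes a nuclear ERK phosphatase, was at 9.41, 22.9 and 29.1 FPKM in the controls against 43.7, 28.8 and 33.8 FPKM in the stressed libraries. CON replicate 3 overlapped the stressed libraries, and the value of 0.92 (SE 0.44, limma adjusted p = 0.9999) went to 0.43 without CON replicate 1. The groups did not overlap in 3 of the 16 genes, lower in CRS for Dusp6 and Etv4 (5.19% of all genes) and higher for Fos (1.65%), which was named after its values were seen and averaged 5.38 ± 1.12 FPKM in the controls against 7.59 ± 0.49 FPKM under stress (SD, n = 3).

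**Figure D5:**
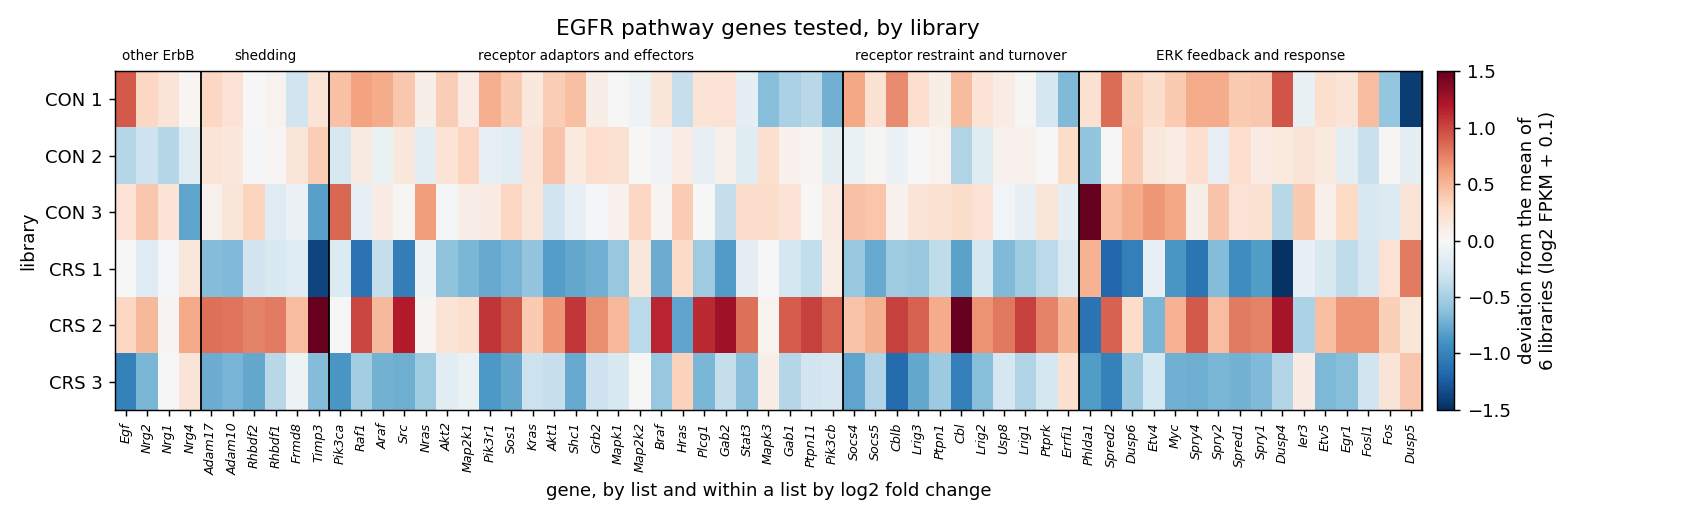
Deviation of each EGFR pathway gene from its own mean over the 6 libraries (colour, log2 scale), genes being grouped by list and ordered within a list by log2 fold change. CRS replicate 2 is above the mean for most genes and CRS replicates 1 and 3 below it, while Dusp6 and Etv4 are below every control in all 3 stressed libraries.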

How the data were processed

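FPKM values, 1 file per library, were deposited by the authors. Reads were aligned with HISAT2 to GRCm39, per the submitters' processing notes. Neither counter nor annotation is named in the sources used here. GENCODE M21 (GRCm38) supplied symbols and exon lengths and held 54079 of 54146 IDs, so no gene coordinates are given beyond RefSeq start sites. FPKM times length fell on whole fragments (within 0.05) for 98.1% to 98.3% of values up to 100. Hbegf was the only member to fall off whole fragments, so its fragments are not given. Of the pathway genes Nrg2, Sos1, Socs5, Spry4 and Fosl1 did so too. The exon lengths used for these genes and for Hbegf are thus uncertain, as are their length-corrected and voom values.

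The 28389 genes with a library mean of 0.1 FPKM or more were compared on log2(FPKM + 0.1) by limma 3.58.1 (R 4.3.3; trended variance, two-sided), and p was adjusted over them by Benjamini-Hochberg (threshold 0.05). Fold changes on that scale understate the change of low genes. Each library was taken as 1 mouse, as the design has 3 mice per group. The fit was tested on simulated data. Other settings are given in the closing section, the length correction (lowess span 0.3) being chosen after seeing the data. Named were all members, the 3 pathway genes per list with the lowest p and the 2 most alike genes per member. Members, lists and tests were chosen with earlier results of these data known.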

Additional observations from a re-analysis of the deposited data

How the results depend on the processing

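With 17 other settings (pseudocounts, filters, scaling, variance models, weights, replicate block, libraries left out, voom, length correction), 0 genes passed the adjusted threshold in any, over all genes, the members or the pathway lists. Median-ratio scaling moved the median of all genes from -0.20 to 0.0040 and turned Egfr to 0.11, Erbb2 to 0.079, Areg to 0.096 and Rhbdf2 to 0.034. The split of all genes then went from 67.8% to 49.6% below 0. The length correction gave 0.094, 0.070, 0.021 and 0.025 for the same genes. Array weights, which gave CRS replicate 3 a weight of 5.42 and CRS replicate 2 one of 0.16, turned Erbb3 to -0.36 and Ereg to -0.042. They gave the lowest adjusted p of any member, 0.0953 for Erbb2. Without both CON replicate 1 and CRS replicate 2, Erbb3 was -0.18, Ereg -0.45, Tgfa -0.45, Btc -0.070, Epgn -0.052, Pik3cb -0.063 and Errfi1 -0.053. The cause of these turns was not tested, beyond what each setting leaves out.

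With each library left out in turn, the value ran from -0.69 to 0.17 for Egfr, -0.84 to 0.28 for Erbb2, -0.13 to 0.68 for Erbb3, -0.33 to 0.099 for Areg and -0.17 to 0.58 for Ereg. It ran from -0.057 to 0.36 for Btc, -0.27 to 0.45 for Epgn, -0.58 to 0.013 for Nrg2 and -0.63 to 0.13 for Rhbdf2. Hbegf was below 0 and Tgfa above 0 in each of these. Deviations from the group mean correlated over genes at -0.12, 0.062 and 0.087 between same-numbered CON and CRS libraries. Between differently numbered ones the values ran from -0.29 to 0.30, so these correlations cannot settle whether libraries were paired. The numbers were not taken as pairs. The replicate block left Egfr at -0.12, and genes at an unadjusted p under 0.05 went from 723 to 626. With 3 libraries per group the 95% intervals of the members were wide. They reached down to -1.41 for Erbb2 and up to 1.82 for Tgfa, so differences up to those sizes were not excluded for these genes.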

Other observations

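Mien1, whose exons overlap those of Erbb2 on the opposite strand, had the reverse order of libraries in CRS. It was at 19.7, 21.7 and 26.1 FPKM in the controls against 30.4, 13.2 and 34.3 FPKM in the stressed libraries replicates 1 to 3, lowest where Erbb2 was highest. Mien1 was picked after its values were seen. Short genes in general were also low in CRS replicate 2. At 1012 nt the length trend was 0.32, -0.65 and 0.20 in CRS replicates 1 to 3. The part of length in the order of Mien1 was not tested. Gm19610, an antisense gene whose exons overlap those of Ereg, was at 0.91, 2.71 and 1.48 FPKM in the controls against 1.27, 1.33 and 1.56 FPKM in the stressed libraries.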
